A study of Mus musculus with 4 samples.

Results

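The genes described here are 10 core genes of white blood cells, Ptprc, Cd53, Runx1, Coro1a, Laptm5, Lcp1, Rac2, Arhgdib, Ptpn6 and Spi1, measured in marrow cells from sorts that lacked CD51. They were chosen by name and are 10 of the 17507 genes in the deposited tables, where Spi1 stands under its older symbol Sfpi1. Ptprc encodes CD45, the surface phosphatase by which leukocytes are usually told from other marrow cells, and the series' title concerns marrow cells without it. Transcripts of all 10 genes were found in each of the 6 libraries.

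Marrow of C57BL/6 mice was freed with collagenase IV and dispase, and single cells were sorted and profiled by SORT-seq, in which every well of a plate has its own cell barcode and molecular identifiers allow transcripts to be counted once. All sorted cells lacked CD51 (integrin alpha V, gene Itgav), and CD44, the hyaluronan receptor, divided them into a CD44+ and a CD44- sort. The labels call the cells TNCs without spelling the term out; a gate on CD45, the age and sex of the mice and how many were used are not given here. Replicate 1 of each sort was a plate of its own. Replicates 2 and 3, numbered so here, were rows A to H (CD44+) and rows I to P (CD44-) of 2 shared plates. No label ties animals to plates, so no p-value below can be tied to the spread between animals. Each measures only the spread between libraries, or between sums of wells within them, that is left after any block named with the test. That spread may be technical.

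Of 1536 wells, 343 held at least 1000 transcripts and were kept, of which 238 were CD44+ and 105 were CD44-. The CD44+ libraries 1, 2 and 3 held 56, 95 and 87 wells with medians of 1994, 5162 and 11225 transcripts per well, and the CD44- libraries held 44, 24 and 37 wells with medians of 1848, 1795 and 2544. Between 12.5% and 55.4% of a library's wells were of low quality, meaning at least 2% of transcripts from Kcnq1ot1 or at least 50% from genes named with the prefix mt-. That prefix misses mitochondrial genes listed without the hyphen, such as mtAtp6 and mtAtp8, so mitochondrial content was not fully screened. All plates use the same well numbers, so shared barcodes say nothing about shared cells. The transcripts of the gated proteins did not separate the sorts: Cd44 lay at 93.5, 284 and 225 CPM (transcripts scaled to a library total of 1000000) in the CD44+ sort and at 124, 345 and 113 CPM in the CD44- sort. Itgav lay between 6.45 and 29.6 CPM in 5 libraries and at 119.7 CPM in CD44- library 3, where 10 of 37 wells held it.

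The products of these genes serve membrane signalling, actin movement and lineage choice. CD45 removes inhibitory phosphates from Src family kinases and so sets the threshold of antigen receptor signalling, while SHP-1, the product of Ptpn6, opposes many activating receptors. CD53 is a tetraspanin of leukocyte membranes, and LAPTM5 is a lysosomal protein that lowers antigen receptor levels. Coronin 1A (Coro1a) and L-plastin (Lcp1) bind actin filaments, RAC2 is a GTPase of blood cells that drives actin remodelling and the phagocyte oxidase, and the Arhgdib product is a GDP dissociation inhibitor. PU.1, encoded by Spi1, is a transcription factor of myeloid and B lineage cells, and RUNX1 is needed for the first blood stem cells to emerge. In the marrow these proteins are textbook features of the white cell lineages, and most fade as erythroid precursors mature.

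The genes lie on 9 mouse chromosomes of build mm10, and deposited rows were summed by gene name. For the membrane and signalling genes the GENCODE gene bounds are chr1:138062861-138175708 for Ptprc, chr3:106759921-106790149 for Cd53, chr4:130913125-130936141 for Laptm5 and chr6:124720707-124738714 for Ptpn6. The actin and GTPase genes lie at chr7:126699773-126707787 (Coro1a), chr14:75131101-75230842 (Lcp1), chr15:78559167-78572783 (Rac2) and chr6:136923655-136941899 (Arhgdib). The transcription factor genes lie at chr16:92601466-92826149 (Runx1) and chr2:91082390-91115756 (Spi1). Ptprc, Runx1, Coro1a, Lcp1, Arhgdib and Ptpn6 overlap another annotated gene. Which part of a gene was counted and whether counting used the strand are not given, so reads of such neighbours could be shared.

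Ptprc transcripts were found in 105 of the 343 kept wells, 331 transcripts in all. By library, 10 of 56, 42 of 95 and 23 of 87 CD44+ wells and 14 of 44, 9 of 24 and 7 of 37 CD44- wells held at least 1. Of the 105 wells, 50 held a single Ptprc transcript, and the highest well held 19. The wells with Ptprc were deeper, with a median of 6245 transcripts against 2498 in the wells without, so shares are given below after each well was thinned at random to 1000 transcripts. The other 9 genes were found in between 65 wells (Spi1, 286 transcripts) and 159 wells (Rac2, 818 transcripts). For each of the 10 genes, between 35.0% and 55.4% of the wells that held it held 1 transcript.

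The first comparison asks whether the CD44+ and the CD44- sort differed in these genes, over transcripts summed per library. Ptprc lay at 140.3, 146 and 37.5 CPM in the CD44+ sort and at 329.8, 356 and 94.5 CPM in the CD44- sort, in the order of libraries 1, 2 and 3. CD44- library 3 fell below CD44+ libraries 1 and 2, so the sorts overlapped, but within each replicate number Ptprc was lower in the CD44+ library. Cd53 lay at 140.3, 213 and 45.7 CPM against 474, 484 and 139 CPM, with the same overlap and again lower CD44+ values in 3 of 3 pairs. Runx1 lay at 20.0, 82.3 and 30.5 CPM against 113, 109 and 442 CPM, and here every CD44- library stood above every CD44+ library.

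**Figure D1:**
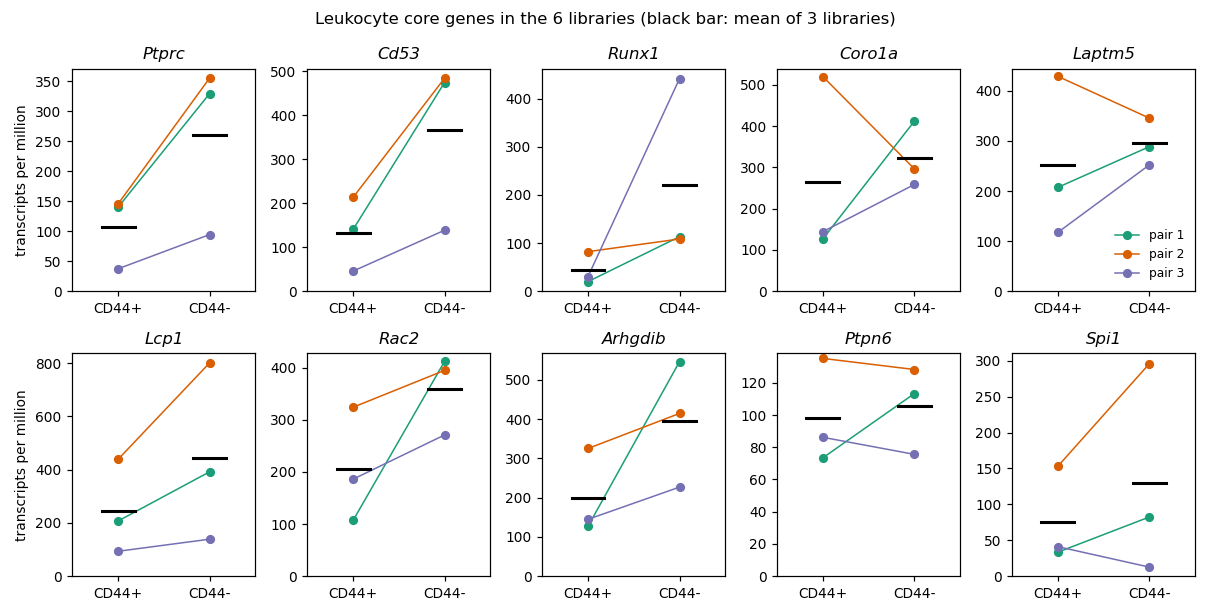
Level of each gene in the 6 libraries, in CPM of the summed library on a linear axis from 0, with 1 point per library, lines joining libraries of the same replicate number and a black bar at the mean of each sort. Runx1 is the gene whose 3 CD44- libraries (109 to 442 CPM) stand above all 3 CD44+ libraries (20.0 to 82.3 CPM), and Ptprc and Cd53 overlap through CD44- library 3.

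None of the 10 genes passed edgeR's quasi-likelihood test between the sorts at a Benjamini-Hochberg adjusted p under 0.05, where 1.02% of the 2463 genes tested passed, 0.0406% as higher and 0.974% as lower in the CD44+ sort. All 10 log2 differences of CD44+ over CD44- were below 0, with a median of -0.93 against -0.04 over all genes. At an unadjusted p under 0.05 stood 1 of the 10 genes, Runx1, and 19.1% of all genes. The Runx1 log2 difference was -2.34 (SE 0.66, edgeR adjusted p = 0.126), that of Cd53 was -1.56 (SE 0.72, adjusted p = 0.284) and that of Ptprc was -1.37 (SE 0.73, adjusted p = 0.341). DESeq2 on the same sums called 1 of the 10, Runx1, at -2.40 (adjusted p = 0.0042), where that test called 11% of all genes, 6.98% lower and 3.98% higher. Because the values are sums over wells, fewer cells of a type and less RNA per cell cannot be told apart here.

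Same-numbered libraries deviated together in these same data. For replicate 1, a separate plate for each sort, no label beyond the number gives a pair. The fit with the replicate number as a block called 2 of the 10 genes lower in the CD44+ sort. These were Cd53 at -1.59 (SE 0.32, edgeR adjusted p = 0.0194) and Ptprc at -1.37 (SE 0.34, adjusted p = 0.0412), while this fit called 6.33% of all genes, 4.59% lower and 1.75% higher. Runx1 stood at -2.44 (SE 0.67, adjusted p = 0.058) in the blocked fit. The remaining 7 genes were also below 0 there, from -0.18 for Ptpn6 to -1.07 for Arhgdib, and none passed. In the further leukocyte list of 42 genes, 24 were tested between the sorts and none was called (median log2 difference -0.73). With the block, 1 of the 24 was called, Cd52, a small glycoprotein of lymphocytes, at -1.57 (SE 0.36, edgeR adjusted p = 0.0318).

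The cause of the differences between the sorts was not tested. Wells rich in the early erythroid marker Car1 differed in number between the sorts. They numbered 15, 10 and 44 in the CD44+ libraries and 0, 1 and 2 in the CD44- libraries, and the summed level of 10 early erythroid genes, all present in the tables, was 3965 to 9190 CPM in the CD44+ libraries and 1520 to 2458 CPM in the CD44- libraries, where 1 of the 10 was at 0 in library 1. When the Car1 wells were left out, 7 of the 10 leukocyte genes turned above 0, with a median of 0.18, and 0 of all genes were called. Ptprc then stood at -0.36, Cd53 at -0.38 and Runx1 at -1.76, the 3 genes that kept a value below 0. Ptprc without Car1 wells lay at 186, 203 and 125 CPM in the CD44+ sort and 329.8, 361 and 95.2 CPM in the CD44- sort, so that pair 3 was reversed.

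The share of wells with a gene was compared after thinning. At 1000 transcripts a well, Ptprc was found in 8.85% ± 4.14 (SD, n = 3 libraries) of CD44+ wells and 15.7% ± 8.84 of CD44- wells (exact two-sided permutation p = 0.3). Cd53 was found in 12.0% ± 8.19 and 27.1% ± 13.9 (exact p = 0.2), and Arhgdib in 13.3% ± 4.92 and 25.8% ± 9.48 (exact p = 0.2). That test ignores the pairs of replicate numbers. The thinned share was lower in the CD44+ library in 3 of 3 pairs for 6 genes, Ptprc, Cd53, Laptm5, Rac2, Arhgdib and Ptpn6. The mean share was lower in the CD44+ sort for all 10 genes, and exact p-values ran from 0.2 to 0.9 where 0.1 is the smallest that 3 against 3 libraries allow. Without thinning, the mean share was lower in the CD44+ sort for 6 of the 10. Whether transcripts spread between wells of a plate was not tested.

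The second comparison asks which lineages the wells with each gene belonged to. A well was put in the class of a marker when that marker had at least 3 transcripts and more than 50% of the transcripts of Car1, Cd79b, Mpo, S100a8 and Cxcl12. Carbonic anhydrase 1 (Car1) marks early erythroid cells, Cd79b the B lineage, Mpo immature myeloid cells, S100a8 neutrophils and Cxcl12 the marrow stroma. This gave 72 Car1 wells (69 of them CD44+), 32 Cd79b wells (27), 11 Mpo wells (10), 40 S100a8 wells (22) and 29 Cxcl12 wells (11), and left 159 wells in no class. With the 5 class markers left out of the lists, 10 B lineage genes summed to 11946 CPM in Cd79b wells and to at most 704 CPM in the other 4 classes. In the same way 6 late neutrophil genes summed to 110439 CPM in S100a8 wells against at most 331 CPM, 9 stromal genes to 11072 CPM in Cxcl12 wells against at most 377 CPM, and 9 early erythroid genes to 8628 CPM in Car1 wells against at most 772 CPM. For the Mpo class, 4 other primary granule genes summed to 9972 CPM in Mpo wells and to 1932 CPM in S100a8 wells. The classes also held genes of other lists. A list of 8 late erythroid genes summed to 8339 CPM in S100a8 wells, up to 89781 CPM in 1 library, and to 4009 CPM in Car1 wells. In Mpo wells 8 monocyte and macrophage genes summed to 2141 CPM. Of the wells without a class, 51.6% were of low quality. Some markers were found in most wells of a CD44- library on a shared plate. In CD44- library 2, 22 of 24 wells held S100a8 and 18 held Mpo, and in CD44- library 3, 22 of 37 held Car1. In CD44- library 1, a plate of its own, Mpo and Car1 were each found in 2 of 44 wells and S100a8 in 15. The cause was not tested.

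Ptprc lay at 289 CPM over Cd79b wells, 205 CPM over Mpo wells and 439 CPM over S100a8 wells, but at 22.4 CPM over Car1 wells and 25.0 CPM over Cxcl12 wells. After thinning, 29.1% of Cd79b wells, 17.6% of Mpo wells and 33.2% of S100a8 wells held Ptprc, against 2.5% of Car1 wells and 2.3% of Cxcl12 wells. Marrow stroma lacks CD45 by textbook knowledge, and since the Car1 share lay close to that of the Cxcl12 wells it is not read as expression, with median depths of 18858 and 6133 transcripts before thinning. The Cxcl12 class is not pure stroma, as 12 of its 29 wells had under 50 Cxcl12 transcripts, 2 of these 12 held the stromal gene Lepr, and 3 of the 5 Ptprc transcripts of the class lay in them. Cd53 behaved alike, with thinned shares of 37.5%, 31.0% and 35.2% in the 3 white cell classes and 2.6% and 5.7% in Car1 and Cxcl12 wells.

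**Figure D2:**
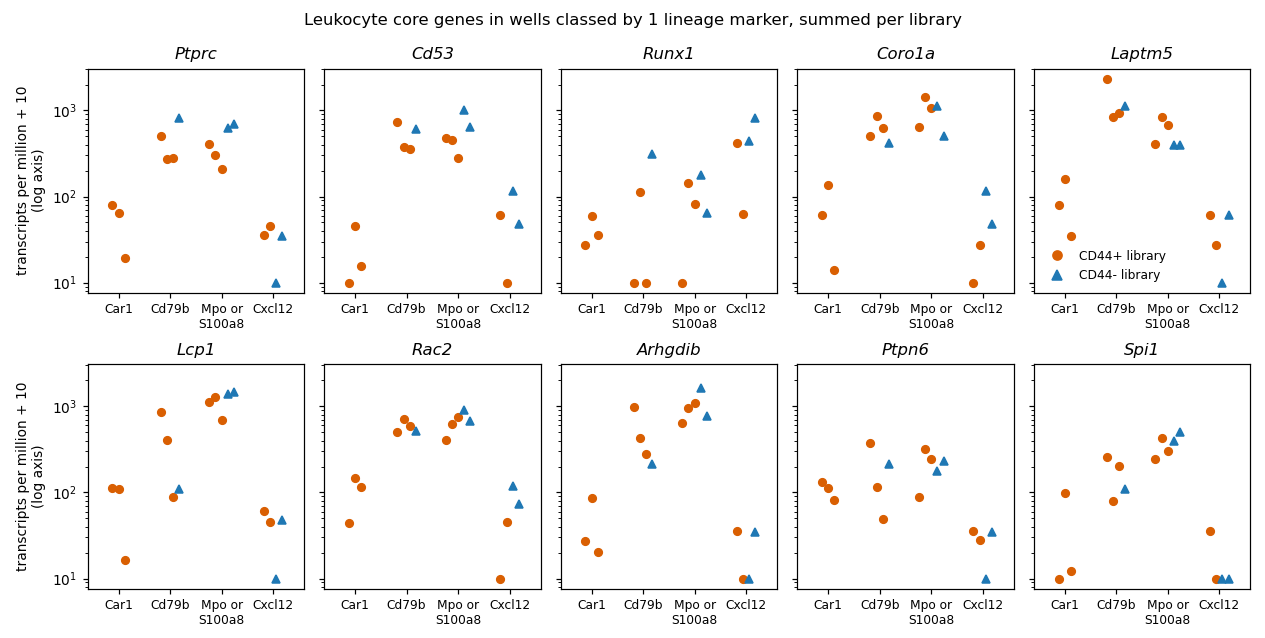
Level of each gene in CPM plus 10, on a log axis, for each class of wells summed within a library, 1 point per sum, circles for CD44+ and triangles for CD44- libraries. Ptprc has all 9 Cd79b and myeloid sums (196 to 807 CPM) above its 3 Car1 sums (9.30 to 68.8 CPM), while the 3 highest Runx1 sums are from Cxcl12 wells (up to 804 CPM).

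Per library, Ptprc in Car1 wells lay at 68.8, 53.7 and 9.30 CPM in CD44+ libraries 1, 2 and 3, the libraries with at least 3 such wells. Its values in Cd79b wells were 489, 260.2 and 272 CPM in the CD44+ libraries and 807 CPM in CD44- library 1. In myeloid wells, the pooled Mpo and S100a8 wells, CD44+ libraries 1, 2 and 3 gave 394, 291 and 196 CPM, and CD44- libraries 1 and 2 gave 611 and 688 CPM. All 9 of these white cell sums stood above all 3 Car1 sums.

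In Cd79b wells against Car1 wells, 7 of the 10 genes were higher by edgeR's quasi-likelihood test with the library as a block, where 15% of the 1358 genes tested were called, 10.6% higher and 4.42% lower. The median over the 10 genes was 2.85 on the log2 scale against 0.02 over all genes. The filter on low counts could be passed through high sums in any class, and no Car1 sum of the 10 genes exceeded 152 CPM. The direction of the medians here and in myeloid wells can thus be partly set by the filter. With no filter, 5 of the 10 genes were called higher, with a median of 2.29 against -0.28 over all genes. The called genes were membrane, signalling, actin and GTPase genes, and neither transcription factor gene was among them. Of the membrane and signalling genes, Cd53 was higher by 4.55 (SE 0.65, adjusted p = 0.00077), Laptm5 by 4.10 (SE 0.62, adjusted p = 0.00087) and Ptprc by 3.19 (SE 0.61, adjusted p = 0.0029). All 4 actin and GTPase genes passed, Coro1a at 3.73, Arhgdib at 3.59, Lcp1 at 2.51 and Rac2 at 2.48. Spi1 at 2.03 (adjusted p = 0.222), Runx1 at 0.91 (adjusted p = 0.402) and Ptpn6 at 0.41 (adjusted p = 0.758) did not pass. Without CD44+ library 2, which holds 20 of the 32 Cd79b wells, 2 genes passed, Cd53 and Laptm5. These 2 also passed in every other fit that left out a library.

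In myeloid wells against Car1 wells, 8 of the 10 genes were higher, where 20.3% of all genes were called, 15.5% higher and 4.79% lower, and the median over the 10 genes was 3.56 against -0.02 over all genes. Arhgdib was higher by 5.22 (SE 0.75, edgeR adjusted p = 0.000162), Lcp1 by 4.80, Cd53 by 4.78 (SE 0.64, adjusted p = 9.84e-05) and Coro1a by 4.75. Spi1 was higher by 3.84 (SE 0.90, adjusted p = 0.0065), Laptm5 by 3.28, Ptprc by 3.18 (SE 0.59, adjusted p = 0.0012) and Rac2 by 2.79. Ptpn6 at 1.40 (adjusted p = 0.127) and Runx1 at 1.37 (adjusted p = 0.117) did not pass. Without CD44+ library 3 the Spi1 call was lost, at 2.88 (edgeR adjusted p = 0.0536). All Car1 sums came from the CD44+ sort, so these class differences and those above compare wells of both sorts with Car1 wells of a single sort.

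The further leukocyte list moved in the same comparisons, with 21 of its 42 genes tested. The rest did not pass the filter on low counts. Since genes could pass it through the classes where they were high, the absence of lower genes is not read as a result. In Cd79b wells 8 of the 21 were higher than in Car1 wells and none lower, with a median of 2.51, where 10.6% of all genes were higher. The examples with the smallest p include Gmfg, an actin branch regulator, at 6.43 (SE 1.00, edgeR adjusted p = 0.0011), the tetraspanin Cd37 at 3.57, and Ptprcap, a partner protein of CD45, at 4.06. In myeloid wells 12 of the 21 were higher and none lower, with a median of 3.42, where 15.5% of all genes were higher. These include Arpc1b, a subunit of the Arp2/3 complex, at 5.00 (SE 0.70, edgeR adjusted p = 0.000134), the integrin Itgb2 at 3.98, the signalling adaptor Tyrobp at 5.90 and the oxidase subunit Cyba at 3.84. In Cxcl12 wells 1 of the 21 was higher than in Car1 wells, where 19.4% of all genes were, and this was Arpc1b at 3.56 (SE 0.77, edgeR adjusted p = 0.0030).

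Members that were high in the same classes need not share promoter letters. Stretches around the start sites are shown for Cd53, Laptm5 and Runx1, which held a match to a core of PU.1 or RUNX factors. Arhgdib also held a match, and its stretch is not shown. RefSeq start windows of 300 bases (250 before to 50 after the start, GRCm38.p6) were given for 8 of the 10 genes, 14 windows in all. The PU.1 type core GAGGAAG, searched on both strands, was found in 2 of the 14 windows (14.3%) and in 13.6% of all 32851 windows. The RUNX core TGTGGT was found in 3 of the 14 (21.4%) and in 16.8% of all windows. The Cd53 window held both, the Laptm5 window a PU.1 core, the window of the distal Runx1 start 2 RUNX cores, and 1 of 3 Arhgdib windows a RUNX core. Capitals mark the matches, which read as CTTCCTC or ACCACA where the core lies on the other strand. The Cd53 stretch is chr3:106790130-106790399 on the minus strand, the Laptm5 stretch is chr4:130913066-130913335 on the plus strand, and both end 20 bases after the start. The Runx1 stretch is chr16:92826025-92826054 on the minus strand, 21 to 50 bases after the distal start.
Cd53: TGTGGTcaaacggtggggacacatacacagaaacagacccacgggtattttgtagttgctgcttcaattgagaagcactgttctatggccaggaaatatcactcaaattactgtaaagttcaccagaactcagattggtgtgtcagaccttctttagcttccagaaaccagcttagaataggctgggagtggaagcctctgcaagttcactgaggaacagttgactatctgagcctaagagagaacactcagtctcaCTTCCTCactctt
Laptm5: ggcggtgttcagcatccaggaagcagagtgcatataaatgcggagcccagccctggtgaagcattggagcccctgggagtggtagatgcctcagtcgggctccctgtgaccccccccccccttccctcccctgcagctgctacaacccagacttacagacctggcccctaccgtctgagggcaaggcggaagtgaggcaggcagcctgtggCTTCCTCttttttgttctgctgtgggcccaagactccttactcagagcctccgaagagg
Runx1: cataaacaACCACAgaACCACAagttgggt

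A match in these letters is a description of the window and not a binding site. Among the genes called in Cd79b and in myeloid wells, Cd53, Laptm5 and Arhgdib held a match. Lcp1, Coro1a and Ptprc, called in the same classes, held neither core in their windows, and Rac2 had no window. Whether a match goes with the calls was not tested.

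The genes were found together in the same wells more often in white cell classes than elsewhere. After thinning, at least 3 of the 10 genes were found in 61.9% of Cd79b wells, 71.3% of Mpo wells and 70.8% of S100a8 wells, against 3.1% of Car1 wells, 7.3% of Cxcl12 wells and 13.8% of wells without a class. Without thinning, 17 wells held all 10 genes. Of the 26 wells with 9 or 10 of the genes, 8 were Mpo wells, 9 S100a8 wells, 4 Cd79b wells, 1 a Car1 well, 4 had no class and none was a Cxcl12 well. Their median depth was 18365 transcripts.

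**Figure D3:**
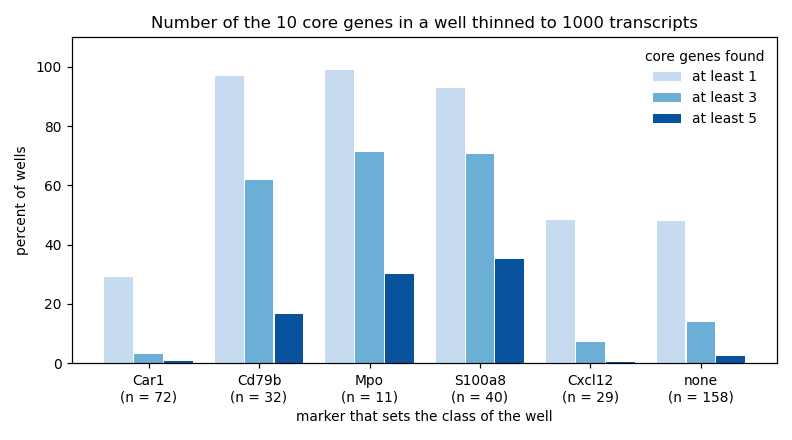
Share of wells in each marker class with at least 1, 3 or 5 of the 10 genes after thinning to 1000 transcripts. At least 3 genes are found in 61.9% to 71.3% of Cd79b, Mpo and S100a8 wells and in 3.1% and 7.3% of Car1 and Cxcl12 wells.

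Wells without a Ptprc transcript still held other leukocyte genes. Of 238 such wells, 167 held at least 1 of the other 9 genes, 70 held at least 3 and 19 held at least 5, with a median of 1. In the 105 wells with Ptprc the median was 6 of the other 9. Among the 6 Cd79b wells without Ptprc, 5 held at least 3 of the others, and among the 14 such S100a8 wells 8 did. A Ptprc count of 0 in a well of these depths does not show that the cell lacked the transcript.

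The classes of the wells that held a gene differed between genes. Of the thinned wells with Ptprc, 35.6% were S100a8 wells, 24.9% Cd79b wells, 5.2% Mpo wells, 4.8% Car1 wells and 1.8% Cxcl12 wells, and 27.7% had no class. Spi1 leaned further to S100a8 wells, with 45.9%, and its Cd79b share was 16.1%. Wells with Runx1 were most often Cxcl12 wells, with 37.9%, and wells with Ptpn6 had the highest share of Car1 wells among these 4 genes, with 16.4%. By presence of the marker alone, 47.4% of thinned wells with Ptprc held S100a8 and 21.4% of those without, and 25.2% against 11.9% held Cd79b. Car1 went the other way, present in 13.4% of thinned wells with Ptprc and 30.7% of those without.

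**Figure D4:**
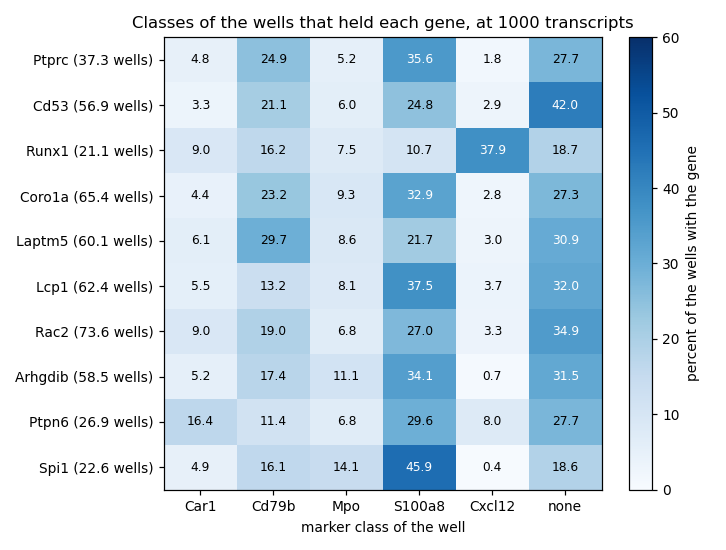
Marker classes of the wells that held each gene after thinning, as percent of those wells, with the mean number of such wells over the draws beside each name. Cxcl12 wells make up 37.9% of the wells with Runx1 and 1.8% of those with Ptprc.

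In Car1 wells some genes lay mostly in a few wells, some were spread over many, and others lay between. The 3 Car1 wells with at least 2 Cd79b transcripts, 1 in each CD44+ library, held 55 of the 63 Coro1a transcripts of the class, 38 of 42 Spi1 transcripts, 17 of 23 Cd53 transcripts and 21 of 40 Ptprc transcripts. In the other 69 wells, Ptprc fell to 19 transcripts in 12 wells (11.4 CPM) and Spi1 to 4 transcripts. Rac2 kept 159 transcripts in 37 of the 69 wells (95.2 CPM), Ptpn6 117 in 38 wells (70.0 CPM) and Runx1 47 in 28 wells (28.1 CPM). Between them lay Arhgdib in 17 wells, Lcp1 in 16 and Laptm5 in 13. These well counts depend on depth: Car1 wells with Runx1 held a median of 30558 transcripts, against 11225 in those without. After thinning, Runx1 was found in 2.6% of Car1 wells and Ptprc in 2.5%. The 3 Car1 wells with at least 2 Cd79b transcripts were singled out after their values were seen, and the cause of their mixed markers was not tested. Without them, 8 of the 10 genes passed edgeR's test in Cd79b wells and 8 in myeloid wells, with Spi1 added in Cd79b wells at 5.40 (adjusted p = 0.000214).

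Ptpn6 did not keep 1 ratio to Ptprc across classes within a library. In CD44+ library 3, Car1 wells held 93 Ptpn6 and 12 Ptprc transcripts, and myeloid wells held 49 and 41. In CD44+ library 2, Car1 wells held 44 and 23, and myeloid wells 74 and 70. Car1 wells gave 46.6% of all Ptpn6 transcripts of the CD44+ sort, 28.5% of its Rac2 transcripts and 15.7% of its Ptprc transcripts. Such shares rise with depth, and Car1 wells were deep, with a median of 18858 transcripts. In CPM, Ptpn6 was lower in Car1 than in myeloid wells in CD44+ libraries 2 (103 against 307) and 3 (72.1 against 234). In CD44+ library 1 it was higher (120 against 78.9), on 7 and 1 transcripts. After thinning, the share of wells with Ptpn6 was 6.1% in Car1 wells and 7.4% in Cxcl12 wells, although the class levels were 80.5 and 20.0 CPM, so no order between these classes is read from the shares.

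Summed over libraries, Runx1 was the gene of the 10 with its highest level in Cxcl12 wells, and 64 of its 94 transcripts there came from CD44- library 3. Over Cxcl12 wells it lay at 471.5 CPM, against 31.3 CPM over Car1 wells, 102 CPM over Cd79b wells, 121 CPM over Mpo wells and 66.3 CPM over S100a8 wells. Per library the Cxcl12 wells gave 408 and 52.9 CPM in CD44+ libraries 2 and 3 and 429.7 and 804 CPM in CD44- libraries 1 and 3. The Car1 sums were 17.2, 49.1 and 25.6 CPM, all below all 4 Cxcl12 sums. Against white cell wells of the same library the order was not uniform: in CD44+ library 3 Runx1 lay lower in Cxcl12 wells (52.9 CPM) than in myeloid wells (71.7 CPM), while in CD44- library 1 it lay higher than in Cd79b wells (302.6 CPM) and myeloid wells (167 CPM). It was the 1 gene of the 10 called in Cxcl12 wells against Car1 wells, higher by 3.03 (SE 0.66, edgeR adjusted p = 0.00305), where 26.7% of all genes were called, 19.4% higher and 7.22% lower.

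That call rested on few sums. Without CD44+ library 2 the Runx1 difference was 2.00 (edgeR adjusted p = 0.391), without CD44- library 3 it was 2.78 (adjusted p = 0.0578), and without CD44- library 1 Runx1 fell below the filter on low counts. With no such filter the difference was 2.06 (edgeR adjusted p = 0.106), and DESeq2 gave 3.48 (adjusted p = 2.74e-06). Leaving out the 3 Car1 wells with Cd79b added a second call, Cd53 at 3.45 (edgeR adjusted p = 0.0272), which stood on 6 Cd53 transcripts in all 29 Cxcl12 wells.

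Within the Cxcl12 class, every well with Runx1 had at least 50 Cxcl12 transcripts, a limit that was set after seeing the data and carries no test. Of the 17 wells with at least 50, 15 held Runx1, with 94 transcripts, a median of 3 and a highest value of 28. None of the 12 wells with fewer held a Runx1 transcript, and 3 wells of 12 would be 25.0%, a limit on wells with a transcript and not on cells that express the gene. The wells with fewer were shallower, at a median of 2373 transcripts against 6572, and 8 of the 12 were of low quality against 1 of the 17. Limits of this kind cover counting error only.

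**Figure D5:**
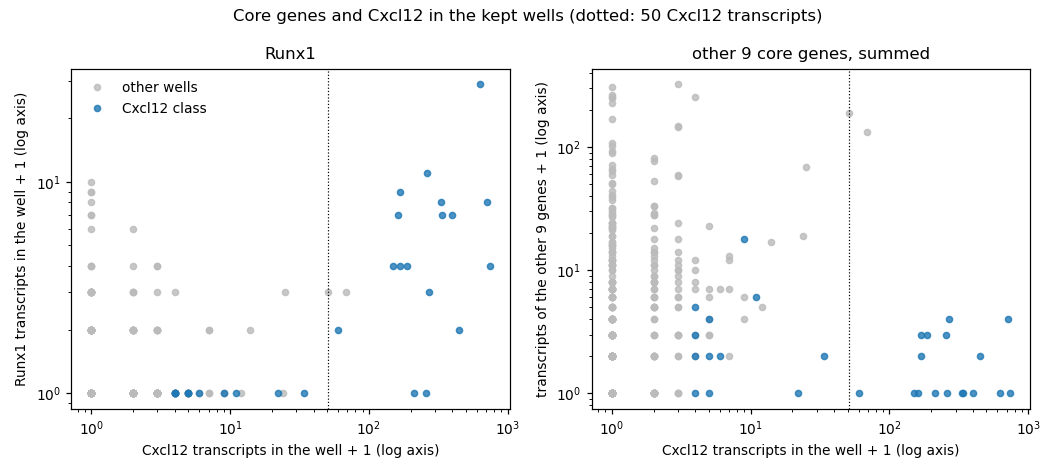
Transcripts of Runx1 (left) and of the other 9 genes summed (right) against Cxcl12 transcripts in each kept well, each plus 1 on log axes, with Cxcl12 class wells in blue and a dotted line at 50 Cxcl12 transcripts. The 15 blue wells with Runx1 all lie right of the line, and the highest holds 28 Runx1 transcripts.

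The 17 strongly Cxcl12 wells held other stromal genes and few transcripts of the other leukocyte genes. All 17 held transcripts of Lepr, the leptin receptor, of the matrix protein gene Sparc and of Kitl, the stem cell factor gene. Ptprc was found in 2 of the 17 wells with 1 transcript each, and Lcp1, Ptpn6 and Spi1 in none, which limits the share of such wells with a transcript, not of cells that express the gene, to 17.6% (3 wells of 17). The wells with Runx1 came from 5 libraries: 2 of 3 in CD44+ library 2, 1 of 1 in CD44+ library 3, 2 of 2 in CD44- library 1, 1 of 1 in CD44- library 2 and 9 of 10 in CD44- library 3. The 2 wells outside the class with at least 50 Cxcl12 transcripts held 2 Runx1 transcripts each.

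The difference of Runx1 between the sorts is given here beside the Cxcl12 wells, and its cause was not tested. Cxcl12 wells gave 75 of the 92 Runx1 transcripts of the CD44- sort (81.5%) and 12.9% of those of the CD44+ sort. The summed level of 10 stromal genes, all in the tables, was 5049 to 26354 CPM in the CD44- libraries and 154 to 1161 CPM in the CD44+ libraries, where 3 of the 10 were at 0 in library 1. Without Cxcl12 wells Runx1 lay at 20.0, 70.4 and 29.7 CPM in the CD44+ sort and at 79.8, 46.2 and 75.8 CPM in the CD44- sort, so the sorts overlapped, and it fell below the filter of the test. Ptprc and Cd53 then stood at -1.70 and -1.87.

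Across wells, Runx1 and Ptpn6 had the lowest correlations with the rest of the 10 genes. Over 342 thinned wells, the Spearman correlation of a gene with the sum of the other 9 was 0.46 for Laptm5, 0.43 for Coro1a, 0.41 for Lcp1 and Arhgdib, 0.40 for Cd53 and 0.36 for Ptprc. It was 0.34 for Rac2, 0.30 for Spi1, 0.098 for Ptpn6 and -0.054 for Runx1. Among 939 other genes found in at least 10% of thinned wells, the 6 most like the sum of the 10 were Tmsb4x (0.60), Lyz1 (0.47), Tmsb10 (0.47), B2m (0.46), Vpreb3 (0.46) and Actb (0.45). They include actin and its thymosin partners, lysozyme and the B lineage gene Vpreb3. The 3 most like Ptprc alone were Tmsb4x (0.34), Cybb (0.29) and Myl6 (0.28). These values describe wells that share plates and are given without a test.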

How the data were processed

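The deposited tables hold expected counts, which the authors estimated for each gene and well from molecular identifiers and did not scale. BWA 0.7.15 and build mm10 come from the submitters' processing notes; the sources used here do not give the counter, the annotation or strand use. Of 821564 values above 0, 100.0% returned to whole numbers within 0.011 when a saturation correction for 4096 identifiers was undone, so that step is inferred from the values. The labels do not state the well order; rows were read in order.

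Wells of at least 1000 transcripts were summed per plate and sort, or per marker class within a library where it had at least 3 wells, and rounded. The class fit held 3 Car1, 4 Cd79b, 5 myeloid and 4 Cxcl12 sums. Tests used edgeR 4.0.16 in R 4.3.3 (quasi-likelihood, TMM, filterByExpr, Benjamini-Hochberg over all tested genes); DESeq2 1.42.0 was an alternative. The SE is the absolute log2 difference divided by the square root of F. Thinned shares are means over 200 draws, compared by exact permutation over libraries; p-values adjusted over the 10 genes alone are not given. No doublet caller was run, since the labels describe sorted single cells. CPM scale a sum of wells to 1000000. Pairing was checked by the correlation of deviations from the sort mean: 0.42, 0.29 and 0.34 for same-numbered pairs and -0.35 to 0.07 for others. Deviations from a mean cancel within a sort, so the values of same-numbered and other pairs depend on each other. The scripts were tested on simulated data.

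The 10 genes, the gene lists and the tests were chosen with earlier results of these data known. Named are the 10 genes, the 5 markers, genes of the further leukocyte list past the threshold (at most 6 a comparison, by p), and the most alike genes by Spearman correlation.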

Additional observations from a re-analysis of the deposited data

Results flagged for a closer look

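The 1193 wells with fewer than 1000 transcripts were left out of the report's comparisons (an alternative fit took those of at least 500), yet each of the 10 genes had more transcripts there than the 3 that a count of 0 allows. They held 249387 transcripts in all. Lcp1 had 102, Rac2 82, Cd53 79, Coro1a 60, Laptm5 57 and Arhgdib 53. Ptprc had 47 transcripts in 41 wells, Ptpn6 28, Spi1 21 and Runx1 8. On the scale of the summed left-out wells, Ptprc lay at 188 CPM and Runx1 at 32.1 CPM, where 3 transcripts amount to 12.0 CPM.

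Spi1 in the Cxcl12 wells of CD44+ library 2 lay at 25.5 CPM, a single transcript, where the other 3 Cxcl12 sums were at 0. With the others at 0, any single transcript fills the whole range of the group, so nothing is read from it.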

How the results depend on the processing

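Between the sorts, where none of the 10 genes was called, the fit with the replicate number as block called 2, DESeq2 1 and no filter on low counts 1. Every fit without 1 library called 0. In Cd79b wells against Car1 wells the count was 7, and 5 with no filter, 0 after thinning, 2 to 7 without 1 library. In myeloid wells it was 8, and 1 after thinning (Lcp1), 7 to 8 without 1 library. In Cxcl12 wells it was 1, and 0 with no filter, 0 after thinning, 2 without the Car1 wells of at least 2 Cd79b transcripts (chosen after seeing the data, as was the limit of 50 Cxcl12 transcripts), 0 to 1 without 1 library. Thinning left 1 of the 10 genes above the filter in each class fit. The count of genes with a lower thinned share in the CD44+ sort was 10, and 6 with no thinning, 7 to 10 without 1 library.

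Log2 differences between the sorts turned above 0 in these fits. With no filter Coro1a was 0.10, Laptm5 0.14 and Ptpn6 0.30. Without Car1 wells Coro1a was 0.72, Laptm5 0.74, Lcp1 0.15, Rac2 0.061, Arhgdib 0.20, Ptpn6 0.23 and Spi1 0.32. On the shared plates alone Coro1a was 0.37 and Ptpn6 0.24, and after thinning Laptm5 was 0.49. Without 1 library Coro1a ran from -1.20 to 0.030, Laptm5 from -0.77 to 0.19, Ptpn6 from -0.44 to 0.11 and Spi1 from -1.72 to 0.73. In Cd79b wells Ptpn6 was -0.19 with no filter, -0.13 with at least 5 transcripts of the marker, and -0.0066 to 0.56 without 1 library. Differences in the share of wells with no thinning were 0.089 percentage points for Ptprc, 0.29 for Lcp1, 0.14 for Rac2 and 7.77 for Ptpn6, and with another seed and 1 draw 0.56 for Laptm5. Without 1 library they ran from -7.86 to 0.40 for Coro1a, -9.25 to 1.83 for Laptm5, -14.3 to 1.37 for Lcp1 and -9.43 to 2.42 for Spi1. The cause of these changes was not tested.

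The number of all genes called between the sorts was 25, and 156 with the block, 270 with DESeq2, 476 with no filter, 55 without wells of low quality, 5 without the deepest wells, 41 with wells of at least 500 transcripts, 161 on the shared plates alone, 0 without Car1 wells, 0 without Cxcl12 wells, 0 after thinning and 0 to 115 without 1 library. In Cd79b wells it was 204, and 684 with no filter, 13 after thinning and 11 to 283 without 1 library. In myeloid wells it was 276, and 1013 with no filter, 425 with at least 5 marker transcripts, 40 after thinning and 83 to 367 without 1 library. In Cxcl12 wells it was 362, and 1124 with no filter, 195 without wells of low quality, 46 after thinning and 151 to 542 without 1 library. Scaling by size factors moved the median of all genes in the Cxcl12 comparison from -0.05 to 0.41, with Runx1 then at 3.46. Depth limits the shares: library medians ran from 1795 to 11225 transcripts a well.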
